A study of Mus musculus with 4 samples.

Results

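Hcn2, Hcn3 and Hcn4 encode pore-forming subunits of the hyperpolarisation-activated, cyclic nucleotide-gated (HCN) channels. These 3 genes were found by symbol among 21883 features in each of 2 deposited tables, 1 for dorsal root ganglia (DRG) and 1 for dorsal spinal cord. HCN subunits assemble as tetramers that open when the membrane becomes more negative and pass a mixed inward current of sodium and potassium ions, called the pacemaker or h current. Binding of cAMP to a domain in the C terminus makes most of these channels open more readily, so receptors that raise cAMP can increase firing. In DRG neurons the current bears on repetitive firing, and deletion of Hcn2 from nociceptors in mice lessens pain behaviour after nerve injury. Hcn4 is best known as the main subunit of the cardiac sinoatrial node, and the channel made by Hcn3 responds little to cAMP.

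The 4 libraries came from wild-type male young adult mice of the BL6/C57 strain, 7 days after transection of the sciatic and femoral nerves on the left. RNA was taken from the ipsilateral lumbar level 4 to 6 DRG, where the cut sensory axons have their cell bodies, and from the contralateral DRG of the uncut side. The other 2 libraries came from the ipsilateral and the contralateral lumbar dorsal cord, where sensory axons enter. Each group is 1 library, so no difference below has a replicate check, and the sources used here do not say whether a library pools animals. All animals were operated, so the contralateral side is the uncut side of an operated animal and not tissue from an unoperated one.

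The deposited levels are FPKM (fragments counted per kilobase of a transcript and relative to all mapped fragments), which divide by transcript length and so allow genes to be compared. Differences are given as plain folds of the FPKM, or as the log2 ratio of (ipsilateral + 1 FPKM) over (contralateral + 1 FPKM), which understates the change of low genes. Counts of features past 2-fold use this log2 ratio unless a plain fold is named, so a gene can pass on its plain fold alone. A feature was taken as measured where the higher of its 2 libraries reached 1 FPKM. In DRG 13137 features did so and in cord 13351, and all 3 HCN genes passed in both tissues. The 95% intervals use the standard error that the test statistic in the authors' deposited tables implies, and they leave out variation between animals. The summed FPKM of the 4 libraries lay between 425636 and 442298, and the median log2 ratio over measured features was 0.05 in DRG and 0.02 in cord. Total read numbers are unknown. In DRG, 50 of 54 features with a standard error like that of 1 read per library shared a log2 fold of -0.65 to 2 decimals, which makes a single ipsilateral read worth 0.639 times the FPKM of a contralateral one. In cord all 20 such features gave 0.43, which makes an ipsilateral read worth 1.35 times a contralateral one. Atf3, a transcription factor gene induced by axon injury, was at 389 FPKM in ipsilateral and 12.6 FPKM in contralateral DRG, so the labelled sides follow the injury. In bulk tissue, fewer cells of a type and less RNA per cell cannot be told apart.

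The files place Hcn2 on mm9 chromosome 10 from 79179378 to 79198853, Hcn3 on chromosome 3 from 88950696 to 88964079, and Hcn4 on chromosome 9 from 58671318 to 58708762. The locus of each overlapped 0 other listed features. In the GENCODE M21 annotation of GRCm38, the longest coding transcript of each gene has 8 exons. Its coding length is 2589 bases for Hcn2, 2337 for Hcn3 and 3603 for Hcn4. No stretch of 50 bases was shared between any pair of these transcripts (0 of 3146 for Hcn2, 0 of 3953 for Hcn3 and 0 of 6069 for Hcn4), so reads of that length are not ambiguous among the 3 genes. The Hcn2 transcript is GC-rich at 65.4% GC, above 99.4% of 21877 coding genes, while Hcn3 and Hcn4 stood at 58.0% each. The RefSeq windows from 250 bases before to 50 bases after the start (build GRCm38.p6) are shown for Hcn2, the gene with the difference in DRG, and for Hcn4, whose DRG levels were close between sides. Capitals mark GC boxes (GGGCGG, either strand, including its complement CCGCCC), which bind Sp-family factors. The Hcn2 window is chr10:79716384-79716683, plus strand, and the Hcn4 window is chr9:58822699-58822998, plus strand.
Hcn2: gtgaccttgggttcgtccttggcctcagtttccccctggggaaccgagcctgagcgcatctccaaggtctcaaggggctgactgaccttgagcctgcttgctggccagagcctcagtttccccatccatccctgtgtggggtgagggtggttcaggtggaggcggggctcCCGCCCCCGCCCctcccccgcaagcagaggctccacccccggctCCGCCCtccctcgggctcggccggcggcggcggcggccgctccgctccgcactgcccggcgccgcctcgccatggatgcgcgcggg
Hcn4: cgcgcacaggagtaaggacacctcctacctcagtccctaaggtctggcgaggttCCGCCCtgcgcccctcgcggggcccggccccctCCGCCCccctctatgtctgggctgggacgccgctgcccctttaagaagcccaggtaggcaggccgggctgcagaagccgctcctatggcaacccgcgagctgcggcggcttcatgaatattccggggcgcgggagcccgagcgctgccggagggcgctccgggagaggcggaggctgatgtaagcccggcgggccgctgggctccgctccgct
The Hcn2 window holds 3 GC boxes and 26 CpG pairs, and the Hcn4 window 2 GC boxes and 31 CpG pairs. A GC box occurs in 35.7% of 32851 RefSeq windows of this length, and the median window has 7 CpG pairs. Neither window holds TATAAA (13.6% of all windows), TGACGTCA, the cAMP response element (1.79%), or TGANTCA, an AP-1 site (7.81%), on either strand.

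Hcn2 fell in ipsilateral DRG and was the predominant gene of the 3 in every library. It was at 16.2 FPKM in ipsilateral DRG and 29.0 FPKM in contralateral DRG. The cut side thus had 0.56 times the contralateral level, with an interval from 0.39 to 0.80 by the authors' deposited table, and a log2 ratio of -0.80. The authors' deposited table calls this difference significant (q = 0.0277, Cuffdiff, 1 library against 1 library). It calls 1.9% of 13975 tested features significantly lower ipsilaterally and 4.64% significantly higher. The fold stayed short of 2-fold on the log2 ratio, a size that 0.784% of measured features passed in the lower direction. Only 1.79% of measured features had a lower log2 ratio than Hcn2, and among 2216 features with a mean of 15 to 30 FPKM, 1.4% had a plain fold as low or lower.

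**Figure D1:**
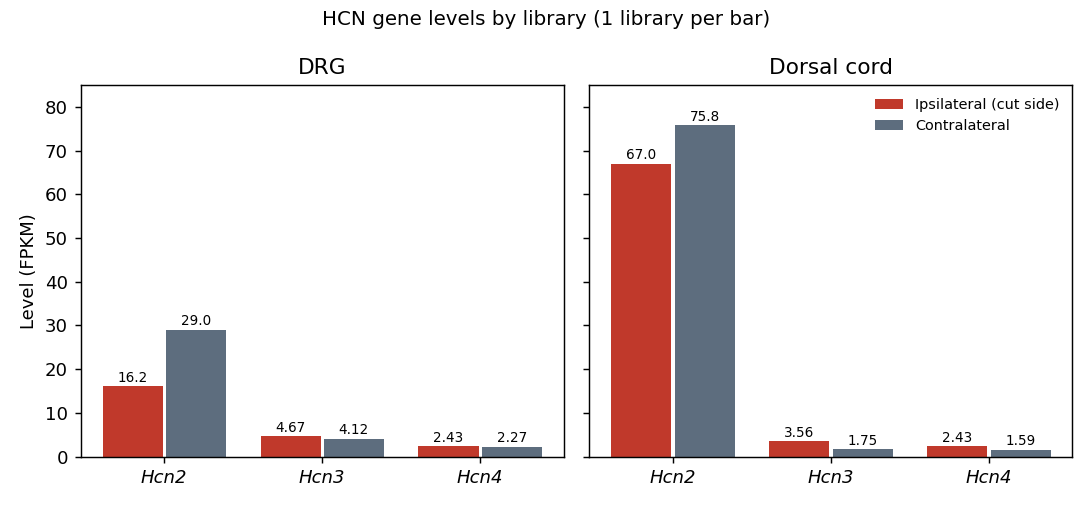
Bars give the deposited level in FPKM of Hcn2, Hcn3 and Hcn4 in ipsilateral (red, left) and contralateral (grey, right) libraries of DRG and dorsal cord, 1 library per bar and so no error bar. Hcn2 stands highest in all 4 libraries, at 16.2 and 29.0 FPKM in DRG and 67.0 and 75.8 FPKM in cord, and the tables of the tissues were normalised separately.

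Hcn3 was at 4.67 FPKM in ipsilateral and 4.12 FPKM in contralateral DRG. Its fold was 1.13, with an interval from 0.72 to 1.79, and the authors' deposited table does not call it (q = 0.896). Hcn4 was the lowest of the 3, at 2.43 FPKM in ipsilateral and 2.27 FPKM in contralateral DRG. Its fold was 1.07, with an interval from 0.64 to 1.78, and q was 0.958 in the authors' deposited table. Both intervals include a fold of 1, so neither a higher nor a lower level on the cut side was shown for Hcn3 or Hcn4. The log2 ratios of 0.15 for Hcn3 and 0.07 for Hcn4 lay above 62.8% and 52.3% of measured features, in the middle of the distribution.

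The makeup of the trio was therefore less dominated by Hcn2 on the cut side of the DRG. Hcn2 made up 69.5% of the summed FPKM of the 3 genes ipsilaterally and 81.9% contralaterally. Hcn3 made up 20.1% ipsilaterally and 11.6% contralaterally, and Hcn4 10.4% ipsilaterally and 6.42% contralaterally. The level of Hcn2 was 3.47 times that of Hcn3 in ipsilateral and 7.05 times in contralateral DRG. The summed level was 23.3 FPKM ipsilaterally and 35.4 FPKM contralaterally, a fold of 0.66, so the lower sum followed the most abundant gene.

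In the dorsal cord Hcn2 stood higher than in DRG and was close between sides, at 67.0 FPKM in ipsilateral and 75.8 FPKM in contralateral cord. The fold was 0.88, with an interval from 0.63 to 1.24, and the authors' deposited table does not call it (q = 0.747). Hcn2 lay above 91.0% of measured features in ipsilateral and 92.1% in contralateral cord, which places it among the more abundant transcripts of this tissue. Hcn3 was at 3.56 FPKM ipsilaterally and 1.75 FPKM contralaterally. That is a plain fold of 2.03, with an interval from 1.07 to 3.86 by the authors' deposited table, and a log2 ratio of 0.73. The authors' deposited table gives an unadjusted p = 0.0306 and q = 0.184 for it (Cuffdiff), so it is not called. At this level such folds were common: among 3566 cord features with a mean of 1 to 5 FPKM, 21.1% had a plain fold past 2-fold in either direction. Hcn4 was at 2.43 FPKM ipsilaterally and 1.59 FPKM contralaterally, a fold of 1.53 with an interval from 0.79 to 2.94 and q = 0.496 in the authors' deposited table. None of the 3 HCN genes was called in cord, where the authors' deposited table calls 4.52% of 14279 tested features higher and 1.55% lower.

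In cord, features of GC content like that of the HCN genes had a higher median log2 ratio than all measured features. Among measured features with a GC value (87.8% of them), those in the same GC class as Hcn3 and Hcn4 had a median log2 ratio of 0.26, against 0.02 over all measured features. With that median subtracted, Hcn3 stood at 0.47 and Hcn4 at 0.15 in cord, against log2 ratios of 0.73 and 0.41 as measured. In the class of Hcn2, features of cord had a median of 0.23, and Hcn2 stood at -0.41 after subtraction. In DRG the class medians were -0.02 for Hcn2 and 0.02 for Hcn3 and Hcn4, and the Hcn2 log2 ratio was -0.79 after subtraction. The part of GC content in the cord values was not tested further.

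**Figure D2:**
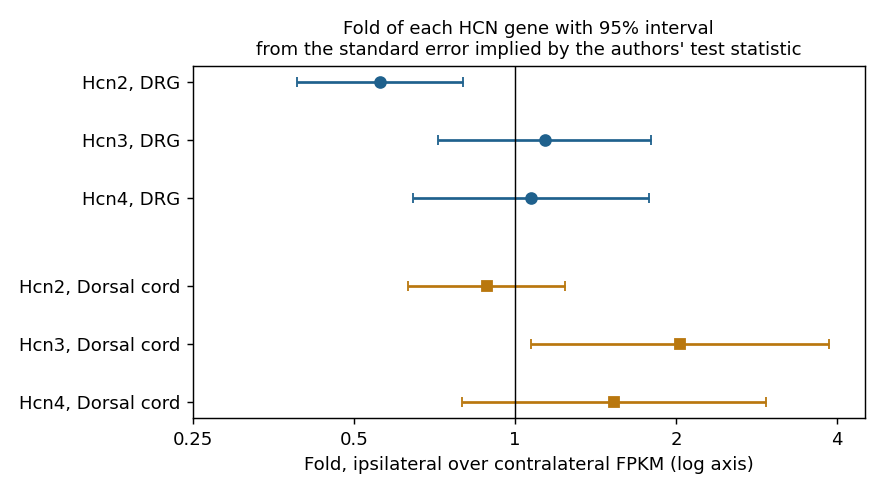
Points give the plain fold, ipsilateral over contralateral FPKM on a log axis, for each HCN gene in DRG (blue circles) and dorsal cord (ochre squares), and bars give 95% intervals built on the authors' test statistic. The intervals of Hcn2 in DRG (0.39 to 0.80) and Hcn3 in cord (1.07 to 3.86) leave out a fold of 1, and the other 4 include it.

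The difference between the tissues in these side-to-side changes was also computed for each gene. For Hcn2 the plain log2 fold change was -0.84 in DRG and -0.18 in cord, a difference of -0.66 with an interval from -1.37 to 0.05. For Hcn3 it was 0.18 in DRG and 1.02 in cord, a difference of -0.84 with an interval from -1.98 to 0.30. For Hcn4 it was 0.10 in DRG and 0.61 in cord, a difference of -0.52 with an interval from -1.71 to 0.68. All 3 intervals include 0, so the decrease of Hcn2 in DRG was not shown to differ from its value in cord.

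Levels across tissues are approximate, because the tables were normalised separately. With that limit, the contralateral level of Hcn2 in DRG was 0.38 times that in cord, and the ipsilateral level 0.24 times. The contralateral level of Hcn3 in DRG was 2.35 times that in cord and the ipsilateral level 1.31 times. For Hcn4 the same ratios were 1.43 contralaterally and 1.0 ipsilaterally. The order Hcn2, Hcn3, Hcn4 was the same in all 4 libraries. Hcn2 and Hcn3 were far apart, with Hcn2 at 18.8 times Hcn3 in ipsilateral and 43.3 times in contralateral cord. Hcn3 and Hcn4 were neighbours, with Hcn3 at 1.46 times Hcn4 in ipsilateral and 1.10 times in contralateral cord, and without replicates their order there cannot be placed beyond error.

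**Figure D3:**
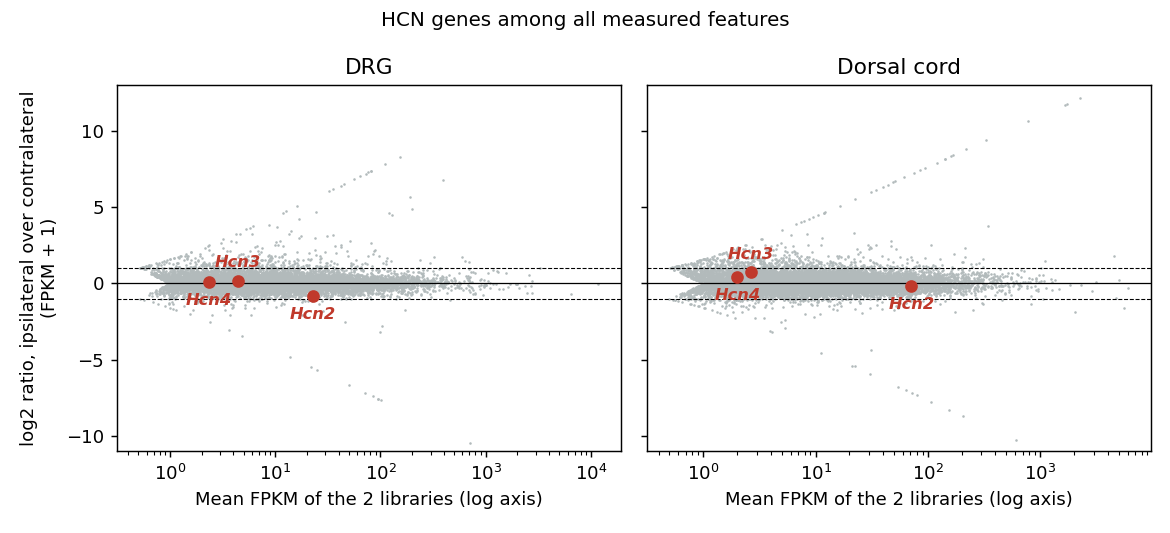
Each grey point is a measured feature, placed by the mean FPKM of its 2 libraries (log axis) and its log2 ratio of ipsilateral over contralateral FPKM + 1, in DRG and dorsal cord. Dashed lines mark a 2-fold difference. Hcn2 in DRG (-0.80) lies at the lower edge of the cloud at its level, while Hcn3 (0.73) and Hcn4 (0.41) in cord lie inside the wide cloud of low features.

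Markers of sensory neurons were mostly lower in the same DRG library as Hcn2. Of 11 sensory neuron markers, all measured, 10 had a log2 ratio below 0 and 0 were 2-fold higher, with a median of -0.47. Over all measured features of DRG 43.9% were below 0, 56.1% were above 0, 0.784% were 2-fold lower and 3.04% were 2-fold higher. Scn10a, a sodium channel gene of nociceptors, was at 87.8 FPKM ipsilaterally and 158 FPKM contralaterally (log2 ratio -0.84). P2rx3, an ATP-gated channel gene, had the opposite sign, at 231 FPKM ipsilaterally and 134 FPKM contralaterally (0.78). The log2 ratio of Hcn2 (-0.80) lay between those of Scn10a (-0.84) and P2rx3 (0.78). Relative to their median, Hcn2 stood at -0.33, Hcn3 at 0.62 and Hcn4 at 0.54.

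Of 9 markers of large-diameter, myelinated sensory neurons, 7 were below 0 and 0 were past 2-fold, with a median of -0.62. Etv1, a transcription factor gene of proprioceptors, was at 32.1 FPKM ipsilaterally and 56.8 FPKM contralaterally (-0.80), and Nefh, the heavy neurofilament gene, at 610 FPKM ipsilaterally and 990 FPKM contralaterally (-0.70). The 12 measured pan-neuronal markers were mixed, with 4 above 0, 8 below and a median of -0.19. Rbfox3, the NeuN gene, was at 46.5 FPKM ipsilaterally and 74.7 FPKM contralaterally (-0.67). Stmn2, a growth-associated tubulin regulator gene, was at 1516 FPKM ipsilaterally and 828 FPKM contralaterally (0.87). All 10 microglia and macrophage markers were above 0 in DRG, 7 of them at least 2-fold higher on the log2 ratio. Their summed level was 163 FPKM ipsilaterally and 63.9 FPKM contralaterally. None of these 10 was listed at 0 in either DRG library, and the part of cell makeup in the Hcn2 difference was not tested.

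In cord, 5 of 7 measured dorsal horn neuron markers were below 0, with a median of -0.35 and 0 past 2-fold on the log2 ratio. Over all measured cord features 48.4% were below 0, 51.6% were above 0 and 1.64% were at least 2-fold lower. Gad1, the enzyme gene of GABA synthesis, was at 45.8 FPKM ipsilaterally and 91.8 FPKM contralaterally (-0.99). Its plain fold was 0.498, and the authors' deposited table calls it lower. The other 2 measured markers, Lmx1b and Pax2, were above 0. Lmx1b was at 14.0 FPKM ipsilaterally and 8.51 FPKM contralaterally (0.66), and Pax2 at 5.01 FPKM ipsilaterally and 3.29 FPKM contralaterally (0.49). Neither is called in the authors' deposited table. The 12 measured pan-neuronal markers of cord had a median of -0.08 over members that differed in sign, 5 above 0 and 7 below, beside the Hcn2 log2 ratio of -0.17. The authors' deposited table calls 2 of them lower in ipsilateral cord and 0 higher. These were the RNA-binding protein genes Elavl2, at 26.1 FPKM ipsilaterally and 49.6 FPKM contralaterally (-0.90), and Elavl4, at 39.9 FPKM ipsilaterally and 60.9 FPKM contralaterally (-0.60). Tubb3, the neuronal tubulin gene, was at 140.0 FPKM ipsilaterally and 85.3 FPKM contralaterally (0.71) and is not called in the authors' deposited table. All 10 microglia and macrophage markers were above 0 in cord and 9 were at least 2-fold higher, a size that 4.46% of measured cord features passed in that direction. Their summed level was 728 FPKM ipsilaterally and 142 FPKM contralaterally. Whether these cells bear on the Hcn3 and Hcn4 values was not tested.

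Genes whose products bind or regulate HCN channels were measured for 10 of 13 members in DRG and 9 of 13 in cord, and 0 were past 2-fold in either tissue. Pex5l, which encodes TRIP8b, the auxiliary subunit that governs HCN trafficking in neurons, was at 27.9 FPKM ipsilaterally and 39.2 FPKM contralaterally in DRG (-0.48). The authors' deposited table does not call it (q = 0.0543). In cord Pex5l was at 100.6 FPKM ipsilaterally and 92.5 FPKM contralaterally (0.12), so it was more abundant in cord than in DRG, as Hcn2 was. Kcne2, a small accessory subunit reported for HCN channels, stayed under 1 FPKM in all 4 libraries. Rest, a repressor of neuronal genes, was at 5.54 FPKM ipsilaterally and 4.02 FPKM contralaterally in DRG (0.38) and at 5.52 FPKM ipsilaterally and 3.53 FPKM contralaterally in cord (0.53). The authors' deposited tables call neither, with q = 0.525 in DRG and q = 0.297 in cord. Src, a tyrosine kinase gene whose product phosphorylates HCN channels, was at 14.9 FPKM ipsilaterally and 10.2 FPKM contralaterally in DRG (0.50), and is the 1 member of this list that the authors' deposited table calls higher there. Nedd4l, a ubiquitin ligase gene, was at 38.5 FPKM ipsilaterally and 53.6 FPKM contralaterally (-0.47).

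Of 14 related channel genes with a cyclic nucleotide-binding or homologous domain, 6 were measured in DRG. All 6 had a log2 ratio below 0, where 43.9% of all measured features stood, with a median of -0.44, 1 at least 2-fold lower (0.784% of all measured features) and 0 higher. The values ran from -1.15 to -0.05. Kcnh7, which encodes the potassium channel subunit Erg3, was at 13.6 FPKM ipsilaterally and 31.4 FPKM contralaterally (-1.15). Kcnh5 was at 3.64 FPKM ipsilaterally and 6.43 FPKM contralaterally (-0.68), and Kcnh2, the Erg1 gene, at 10.4 FPKM ipsilaterally and 16.7 FPKM contralaterally (-0.64). Of the 6, the authors' deposited table calls Kcnh7 alone. In cord 4 of 6 measured were below 0 and 2 above, with a median of -0.15 and 0 past 2-fold on the log2 ratio. The largest log2 ratio was that of Cngb1, a cyclic nucleotide-gated channel subunit gene, at 1.10 FPKM ipsilaterally and 0.23 FPKM contralaterally (0.77, or a plain fold of 4.76), and it is the 1 member that the authors' deposited table calls there. Kcnh5 was at 6.83 FPKM ipsilaterally and 10.7 FPKM contralaterally (-0.57) and is not called in the authors' deposited table.

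The genes that set cAMP, the ligand of HCN channels, showed no common direction in DRG. Adenylyl cyclase genes, which make cAMP, had 4 of 8 measured members above 0 and 4 below, with a median of -0.01 and 0 past 2-fold. Adcy6 was at 4.43 FPKM ipsilaterally and 3.21 FPKM contralaterally (0.37), and Adcy9 at 13.9 FPKM ipsilaterally and 17.5 FPKM contralaterally (-0.31). Phosphodiesterase genes, which break cAMP down, had 6 of 15 measured members above 0 and 9 below, with a median of -0.07. On the log2 ratio 1 was at least 2-fold higher. Pde1a, a calcium-activated member, was at 13.5 FPKM ipsilaterally and 3.95 FPKM contralaterally (1.55). Pde7a was at 11.2 FPKM ipsilaterally and 5.28 FPKM contralaterally (0.96, or a plain fold of 2.12), and Pde11a at 8.24 FPKM ipsilaterally and 14.9 FPKM contralaterally (-0.78). The authors' deposited table calls 4 phosphodiesterase genes higher and 1 lower in DRG, of 15 measured, where it calls 4.64% of all tested features higher and 1.9% lower.

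Of 8 cAMP effector genes, protein kinase A subunits and EPACs, 6 were below 0 in DRG and 0 past 2-fold, with a median of -0.20. Prkar2b, a regulatory subunit gene of protein kinase A, was at 72.0 FPKM ipsilaterally and 109.7 FPKM contralaterally (-0.60). Receptors that raise cAMP had 7 of 9 measured members below 0 in DRG and a median of -0.20. Htr7, a serotonin receptor gene, was at 3.96 FPKM ipsilaterally and 8.43 FPKM contralaterally (-0.93).

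In cord the same pathway lists had medians of 0.01 for 8 cyclase genes, 0.27 for 15 phosphodiesterase genes, -0.16 for 8 effector genes and -0.13 for 8 receptor genes. The phosphodiesterase gene past 2-fold on the log2 ratio was Pde3b, at 10.2 FPKM ipsilaterally and 2.79 FPKM contralaterally (1.56). Rapgef3, the EPAC1 gene, was at 11.2 FPKM ipsilaterally and 7.06 FPKM contralaterally (0.60), and the authors' deposited table calls it. Ptger4, a prostaglandin E2 receptor gene, was at 0.75 FPKM ipsilaterally and 2.50 FPKM contralaterally, just short of 2-fold lower on the log2 ratio (-0.995). Its plain fold was 0.30, and the authors' deposited table calls it lower.

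**Figure D4:**
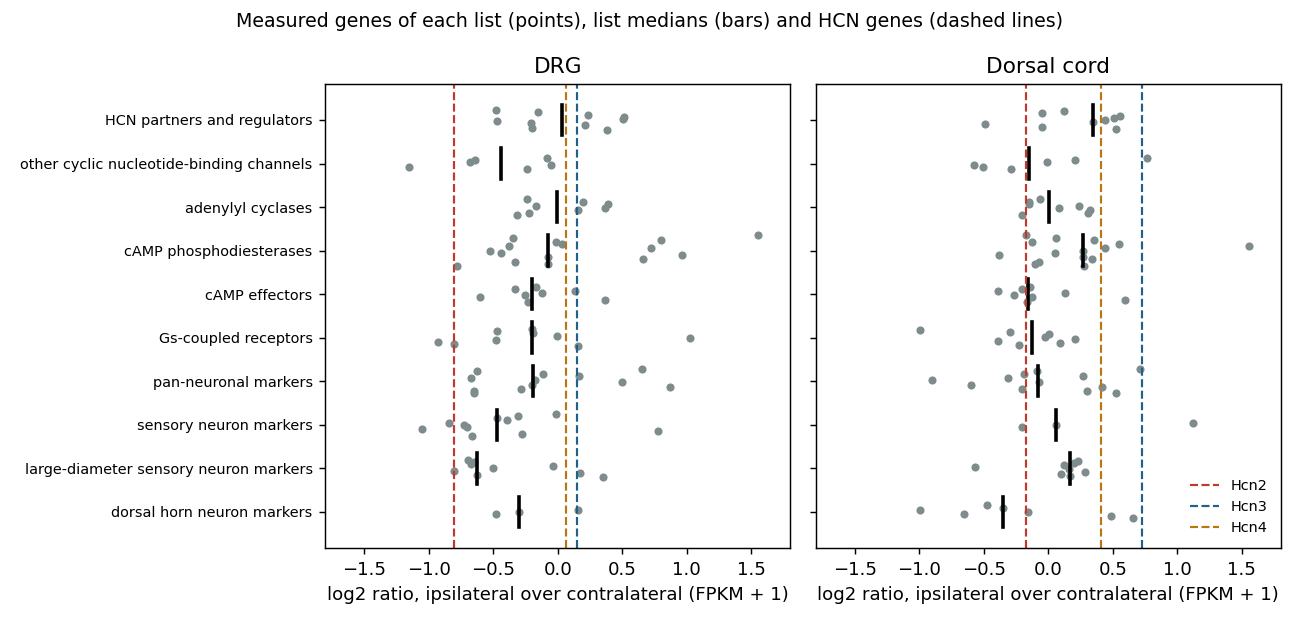
Points give the log2 ratio (ipsilateral over contralateral, FPKM + 1) of each measured gene of 10 lists (HCN partners, related channels, the cAMP pathway and neuron markers, without motor neuron, glial, myeloid, vascular and injury genes) in DRG and dorsal cord, black bars the list medians, and dashed lines the HCN genes. In DRG the Hcn2 line (-0.80) lies left of the 10 medians shown, with the large-diameter sensory neuron markers nearest (-0.62), and in cord the Hcn3 (0.73) and Hcn4 (0.41) lines lie right of the 10 medians shown.

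The features most like each HCN gene were sought by the Euclidean distance over log2(FPKM + 1) in the 4 libraries, among 14259 features at 1 FPKM or more in any library. Nearest to Hcn2 were Id4, a transcriptional regulator gene (distance 0.25), Prkcb, the protein kinase C beta gene (0.28), and Tspan2, a tetraspanin gene (0.42). Id4 was at 19.1 FPKM in ipsilateral and 27.4 FPKM in contralateral DRG, and at 64.7 FPKM in ipsilateral and 76.3 FPKM in contralateral cord. Nearest to Hcn3 were Hspa12b (0.23), Gins3 (0.24) and Maff (0.24), and nearest to Hcn4 were Ephx2 (0.13), Nfkbie (0.16) and Cyr61 (0.18). Distances are smaller for low genes, where many features crowd within a few FPKM, so those of Hcn3 and Hcn4 say less than that of Hcn2.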

How the data were processed

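RNA was measured by sequencing in 4 libraries, ipsilateral and contralateral DRG and dorsal cord, 1 per group. Per the labels' protocols, the QIAGEN RNeasy Mini Kit was used for extraction and an Epicentre ScriptSeq kit for the mRNA libraries. The tools were TopHat 1.4.0 and Cuffdiff 1.3.0 on build mm9, per the submitters' processing notes; annotation, filters and strand setting are not given in the sources used here. Per the file headers, the deposited tables give FPKM, a log2 fold change, a test statistic (a score of that fold change), p-values and q-values, and a feature is called at q up to 0.05. The fold change column, treated as a score, holds a placeholder where a library is listed at 0. In the cord table the authors' fold change runs contralateral over ipsilateral, and its sign was turned so that every fold here is ipsilateral over contralateral.

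From the deposited FPKM, log2 ratios with a pseudocount of 1 FPKM were computed in Python 3.11.15 with pandas 2.3.3. No test was made, since no group has a replicate. The standard error of a fold is the authors' log2 fold change divided by their test statistic. The calculation was tested on simulated data. Depth is unknown and 0 columns of other samples were left out.

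The members and lists were chosen with earlier results of these data known. The 18 lists cover HCN partners, related channels, the cAMP pathway (adenylyl cyclases, phosphodiesterases, effectors, Gs-coupled receptors), cell type markers and injury genes. Named genes are the members, Pex5l, Kcne2, Rest and Atf3, examples from each list (at most 4 measured genes in each tissue, those of largest absolute log2 ratio), and the 3 nearest features per member. Alternatives were pseudocounts of 0.1 and 3 FPKM, rescaling, subtraction of the pan-neuronal median, other filters and the authors' calls. Subtraction of GC class medians (20 classes) and of the sensory neuron median were chosen after seeing the data. Other genes of the HCN family are not reported here.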

Additional observations from a re-analysis of the deposited data

How the results depend on the processing

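Each HCN gene kept its direction in both tissues under all alternatives run for it, 39 in all. Part of this was fixed in advance. A pseudocount cannot change the sign of a ratio, and subtracting a negative neuronal median can only raise Hcn3 and Hcn4. Each value also stayed inside a 95% interval around the main value. That is a loose limit, since it let Hcn2 in DRG go from -0.80 to -0.33. In DRG the log2 ratio ranged from -0.86 to -0.33 for Hcn2, from 0.10 to 0.62 for Hcn3 and from 0.03 to 0.54 for Hcn4. The ends nearest to 0 for Hcn2 and farthest from 0 for the others came from subtracting the sensory neuron median. In cord it ranged from -0.41 to -0.09 for Hcn2, from 0.46 to 0.98 for Hcn3 and from 0.15 to 0.58 for Hcn4. The summed level of the 3 genes ranged from -0.64 to -0.40 in DRG and from -0.14 to -0.03 in cord.

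The counts of features past 2-fold, used as background, were 400 higher and 103 lower in DRG and 595 higher and 219 lower in cord. They depend on the treatment of low values by construction. A pseudocount of 0.1 FPKM gave 679 higher and 259 lower in DRG and 964 higher and 481 lower in cord, and one of 3 FPKM gave 204 and 44 in DRG and 264 and 81 in cord. A filter at 5 FPKM gave 68 lower in DRG, and 373 higher and 130 lower in cord. The authors' deposited table calls 649 higher and 266 lower in DRG. No paired analysis was possible because each group holds 1 library, and for the same reason no replicate could be left out. The implied standard error on the log2 scale had a median of 0.57 in cord and 0.44 in DRG for features with a mean of 1 to 3 FPKM. For Hcn4 in cord the interval of the fold, from 0.79 to 2.94, includes 1.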

Other observations

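Other cell types described by the marker lists moved less than the myeloid markers in DRG. Satellite glia markers had a median log2 ratio of 0.00 over 6 genes, with Glul, the glutamine synthetase gene, at 323 FPKM ipsilaterally and 179 FPKM contralaterally (0.85). Schwann cell markers had a median of 0.14 over 6 measured genes, endothelial and mural markers 0.12 over 7, and oligodendrocyte markers, some of which Schwann cells express, 0.21 over 3. Astrocyte markers, some of which satellite glia express, were mixed in DRG. Of 6, 1 was at least 2-fold higher and 2 were at least 2-fold lower, among them Slc1a2, a glutamate transporter gene, at 2.34 FPKM ipsilaterally and 7.98 FPKM contralaterally (-1.43). In DRG all 5 injury genes passed 2-fold upward and their median was 4.85. Dorsal horn neuron markers had a median of -0.30 over 3 measured genes in DRG and motor neuron markers -0.31 over 2.

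In cord, astrocyte markers had a median of 0.08 over 6 genes, with the filament gene Gfap at 881 FPKM ipsilaterally and 469 FPKM contralaterally (0.91). Oligodendrocyte markers had a median of -0.10 over 8 genes, endothelial and mural markers 0.09 over 7, satellite glia markers 0.06 over 6, Schwann cell markers 0.06 over 3 and motor neuron markers -0.05 over 2. Large-diameter sensory neuron markers had a median of 0.17 over 8 and sensory neuron markers 0.06 over 3 of 11. The HCN partners had a median of 0.03 over 10 genes in DRG and 0.34 over 9 in cord, and in cord 4 of 5 injury genes passed 2-fold upward, the median being 1.72.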
